A study of Mus musculus with 2 samples.

Results

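Interferon-stimulated genes were examined in the corneal epithelium of diabetic and control mice. The group holds 37 genes, taken by symbol from a given list, and all 37 had a row among the 17492 genes of the count table. Single-cell RNA sequencing had been done on male C57BL/6J mice aged 20 weeks, in 2 libraries. The control library was a pool of 4 corneas from 2 mice that had received citrate buffer, and the diabetic library a pool of 4 corneas from 2 mice given 160 mg/kg of streptozotocin once, a toxin that destroys the insulin-producing beta cells of the pancreas. Glucose in the blood of the diabetic mice had stayed above 250 mg/dL over 12 weeks, per the series' design text. Because each group is 1 pooled library, animals cannot be told apart, no replicate exists and no test between the groups was made. Every interval below covers counting error only.

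Interferons are cytokines that cells release when they sense viral or displaced nucleic acid. Type I interferons bind a receptor whose kinases activate transcription factors, among them STAT2 and IRF9, that bind the interferon-stimulated response element (ISRE) of target promoters. Interferon gamma acts through another promoter element, the gamma-activated site (GAS). The induced proteins block translation of foreign RNA, degrade it, or raise the supply of the sensors themselves, and surface epithelia such as that of the cornea keep a low level of many of these transcripts without infection.

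The promoters of these genes carry the response element far more often than promoters in general, and 5 are shown: those of 4 members that were called lower below (Isg15, Ifit1, Ifit3 and Gbp2) and that of Irf1, which was not. RefSeq promoter windows on GRCm38.p6, reaching from 250 bases before the start of transcription to 50 bases after it, were found for 29 of the 37 members. Usp18, Parp9, Zbp1, Dhx58, Ifi27l2a, Rtp4, Parp14 and Ifi27 had no window. The ISRE was searched as GAAANNGAAA and the GAS as TTCNNNGAA, on both strands, with overlapping matches counted. The ISRE letters were in the windows of 14 of 29 members (48.3%), against 3.99% of the 27025 genes with a window. The GAS letters were in 6 of 29 (20.7%), against 9.55% of all genes. Below, each window reads 5′ to 3′ on the strand of its gene, with capitals on the ISRE matches, or, for Irf1, on the GAS match. The windows are at chr4:156200769-156201068 (minus strand) for Isg15, chr19:34640639-34640938 (plus) for Ifit1, chr19:34583279-34583578 (plus) for Ifit3, chr3:142620413-142620712 (plus) for Gbp2 and chr11:53769764-53770063 (plus) for Irf1.
Isg15: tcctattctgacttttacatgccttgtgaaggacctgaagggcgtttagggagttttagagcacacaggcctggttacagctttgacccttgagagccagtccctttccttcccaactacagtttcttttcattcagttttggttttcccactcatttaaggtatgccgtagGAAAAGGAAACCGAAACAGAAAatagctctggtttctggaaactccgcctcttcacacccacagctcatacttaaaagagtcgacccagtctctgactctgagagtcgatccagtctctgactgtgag
Ifit1: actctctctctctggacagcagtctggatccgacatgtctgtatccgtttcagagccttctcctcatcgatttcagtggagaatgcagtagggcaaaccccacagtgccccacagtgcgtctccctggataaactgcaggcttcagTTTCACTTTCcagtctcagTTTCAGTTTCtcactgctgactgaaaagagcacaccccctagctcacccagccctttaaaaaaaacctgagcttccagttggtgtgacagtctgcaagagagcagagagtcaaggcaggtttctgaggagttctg
Ifit3: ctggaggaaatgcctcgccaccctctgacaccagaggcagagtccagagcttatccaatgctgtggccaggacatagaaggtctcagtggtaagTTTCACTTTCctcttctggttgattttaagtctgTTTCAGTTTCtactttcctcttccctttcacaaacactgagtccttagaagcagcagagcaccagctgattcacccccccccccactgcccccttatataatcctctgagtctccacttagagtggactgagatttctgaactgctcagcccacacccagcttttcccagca
Gbp2: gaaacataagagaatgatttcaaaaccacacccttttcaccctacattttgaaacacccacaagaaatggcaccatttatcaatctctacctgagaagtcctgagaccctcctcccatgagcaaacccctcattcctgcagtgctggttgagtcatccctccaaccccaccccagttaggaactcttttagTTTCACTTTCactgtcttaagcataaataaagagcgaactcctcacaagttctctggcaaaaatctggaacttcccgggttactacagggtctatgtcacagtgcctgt
Irf1: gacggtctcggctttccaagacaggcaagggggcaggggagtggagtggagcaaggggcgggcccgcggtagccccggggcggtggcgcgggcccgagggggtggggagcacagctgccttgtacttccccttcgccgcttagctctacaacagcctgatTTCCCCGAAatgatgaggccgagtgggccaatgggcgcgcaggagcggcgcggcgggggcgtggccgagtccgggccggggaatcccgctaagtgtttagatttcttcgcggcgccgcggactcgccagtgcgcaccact
In Isg15, 3 overlapping ISRE matches form a single run, with first bases at positions -78, -72 and -66 from the start site. Ifit1 has 2 separate matches at -104 and -85, and Ifit3 has 2 at -156 and -122. Gbp2 has 1 match at -59. Irf1 has no ISRE match here and a GAS match at -90. Another Irf1 window, at chr11:53770223-53770522 (plus) and not shown, has 0 matches of either element. A match is a description of letters and shows neither binding nor use of the site.

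The control library held 9605 cells and 196359192 unique molecular identifiers (UMIs, tags that count each captured molecule once), and the diabetic library 8203 cells and 171030636 UMIs. The authors gave each cell 1 of 8 labels (Basal, LSC, TAC1, TAC2, Squam, Wing, Immune and Conj), and the abbreviations are not spelled out in the sources used here. Markers of corneal epithelium (Krt12, Aldh3a1, Krt5 and Pax6) summed to 40511 and 40599 CPM (the UMIs of a gene scaled to 1000000 UMIs of the same cells) over all control and diabetic cells. In the 7 epithelial labels, 5 leukocyte markers together stayed between 0.155 and 0.863 CPM in either library. The 4 antigen-presenting markers (Cd74, H2-Aa, H2-Ab1 and H2-Eb1) summed to 22.5 and 12.4 CPM over all cells, and in Wing cells to 4.85 and 0.151 CPM, with Cd74 and H2-Ab1 at 0 in diabetic Wing cells. In the other epithelial labels the antigen-presenting sum lay between 0 and 4.59 CPM, the highest in control LSC cells. The 4 macrophage markers summed to 0.863 and 0.0566 CPM in Wing cells. The part of such RNA in the Wing and LSC values below was not tested. The Immune label held 26 and 10 cells, with 114 and 34 UMIs of the 37 genes, and none of them reached the minimum count there. The libraries shared 18 cell barcodes. Scrublet, a doublet caller, marked 0 cells in either library, so doublets remain in the values below.

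Over all cells the interferon-stimulated genes were lower in the diabetic library. A gene was measured when it had 50 or more UMIs over both libraries. It was called when its CPM differed by 1.5-fold or more and the exact 95% Poisson intervals did not overlap. Of the 37 members, all measured, 14 were called lower, against 2.8% of 13846 measured genes, and 0 were called higher, against 5.98%. The members were chosen with earlier results of these data known, so the shares describe the list only. The diabetic level was below the control level for 35 of 37 members, against 38.6% of all measured genes. The exceptions were Ifit2 and Ifi27l2a. With each label given the same weight in both libraries, the log2 ratio of Ifi27l2a went from 0.11 to -0.18, and those of Irf1 (0.08) and Dtx3l (0.003) were above 0. The median log2 ratio of diabetic over control was -0.41 (95% interval of the median over members, -0.65 to -0.28), and the median over all measured genes was 0.07. Summed over the members, the level was 1287 CPM (control) and 925 CPM (diabetic), a ratio of 0.719 (0.715 to 0.724). Without Ifit1bl1, the most abundant of them, that ratio was 0.759.

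**Figure D1:**
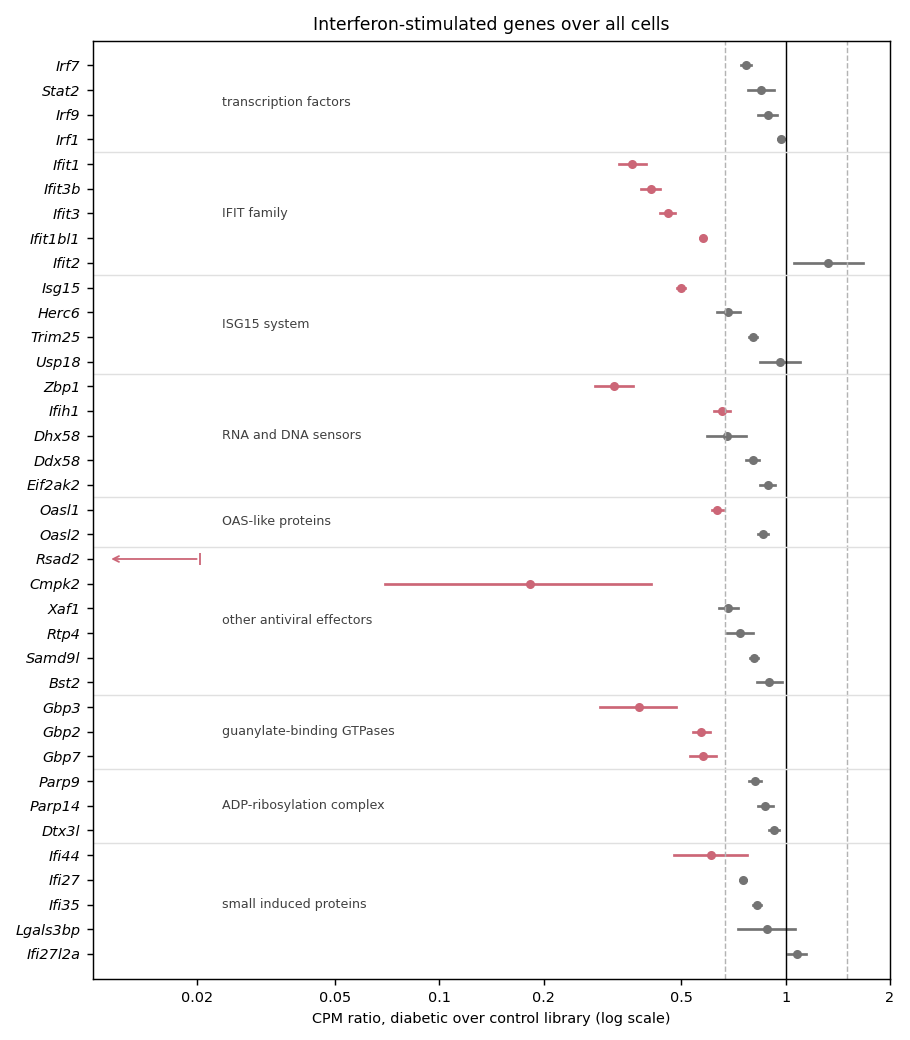
CPM ratio of the diabetic over the control library for each of the 37 genes over all cells, on a log axis, grouped by role. Points are ratios, bars are 95% counting intervals, dashed lines mark the 1.5-fold limits and red marks the 14 genes called lower; the arrow for Rsad2, with 0 diabetic UMIs, starts at its bound. Most points lie left of 1, and Ifit2 and Ifi27l2a lie right of it, Ifi27l2a only without equal label weights.

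By cell type label, each epithelial label had members called lower, and the median of LSC cells changed sign between settings. Squam cells, where Psca, a gene of the superficial layer, was far higher than in Wing or deeper cells, had 15 of 35 measured members called lower, against 7.75% of genes. Their median log2 ratio was -0.49, beside -0.08 for all genes. Wing cells had 10 of 32 called lower, against 2.59% of genes, with a median of -0.30. Basal cells had 9 of 30 (genes, 2.38%; median -0.26), TAC1 cells 8 of 28 (genes, 1.52%; median -0.35) and TAC2 cells 5 of 29 (genes, 1.35%; median -0.33). Conj cells had 3 of 30 (genes, 1.95%) and a median of -0.26. LSC cells had 3 of 17 (genes, 2.61%), with 9 of 17 ratios below 1 against 48.7% of genes. Their median was -0.08 (-0.66 to 0.25), and it was 0.11 without likely doublets and 0.02 with equal weight for every cell. The number of measurable members and the counts behind them differ between labels, so the counts are not a ranking of labels. No member was called higher in any of these labels. Across the 7 labels there were 53 calls, spread over 22 members. Isg15 was called in 6 labels, Ifit3 and Ifit1bl1 in 5, and Ifit3b and Gbp7 in 4. These tallies include the Ifit1bl1 calls in Basal and TAC1 cells, which are not read as expression below. For 20 members no label that measured them had a diabetic level at or above the control level. Cmpk2 is among the 20 although 0 labels measured it, and Rsad2, Gbp3 and Ifi44 were measured in 1 label each. The share of all genes with this pattern was not computed.

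**Figure D2:**
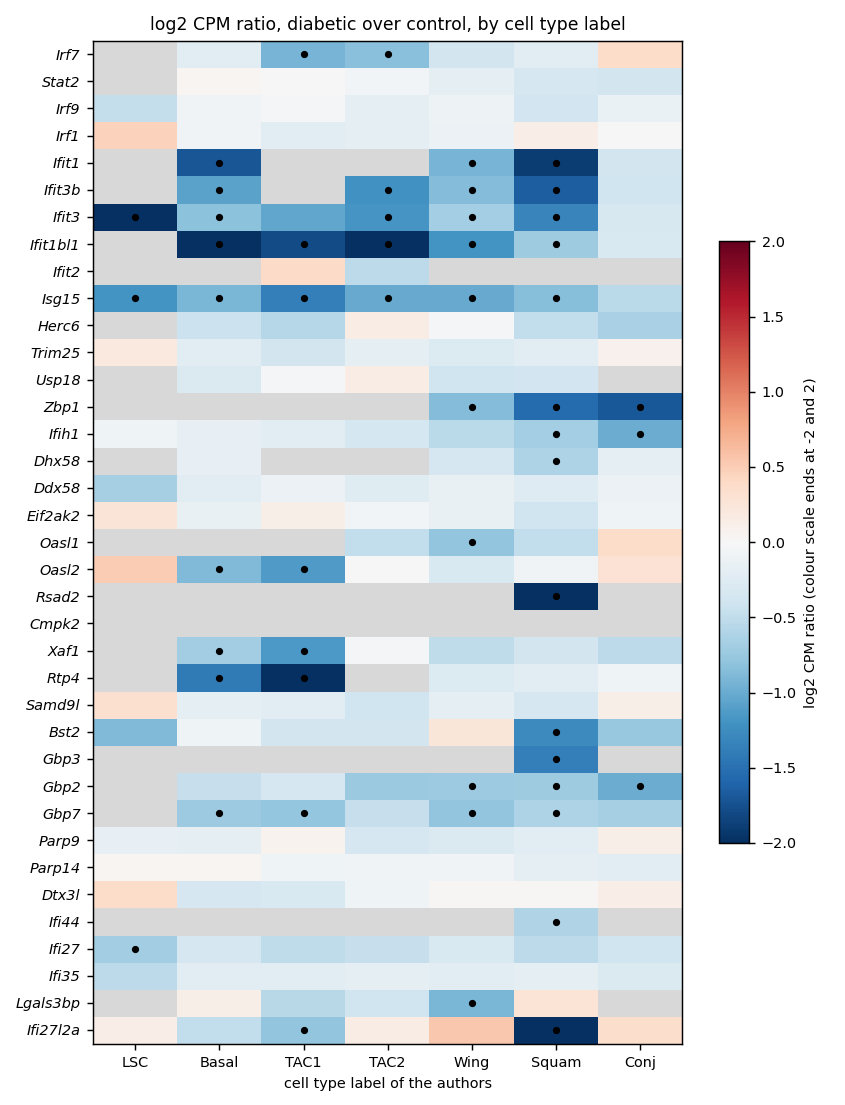
log2 CPM ratio of diabetic over control for the 37 genes (rows, grouped by role) in the 7 epithelial labels (columns). Blue is lower and red is higher in the diabetic library, black dots mark calls, grey marks fewer than 50 UMIs, and colours end at -2 and 2; Rsad2 in Squam, with 0 diabetic UMIs, is drawn at -2. The rows of the IFIT genes, Isg15 and Gbp7 hold most of the dots.

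The IFIT proteins bind foreign RNA ends and block its translation, and 4 of the 5 family members were called lower over all cells. Ifit1 was at 10.6 CPM (control) and 3.82 CPM (diabetic), 2.77-fold lower (2.54 to 3.03). Ifit3 was at 27.0 and 12.3 CPM, 2.19-fold lower (2.08 to 2.30). Its close copy Ifit3b was at 18.9 and 7.72 CPM, 2.45-fold lower (2.30 to 2.61). How reads shared by such copies were assigned is not given in the sources used here, so the split between Ifit3 and Ifit3b is uncertain. Ifit1bl1 was the most abundant of the 37 genes, at 278 and 160 CPM, 1.74-fold lower (1.71 to 1.76). Ifit2 had few UMIs, 145 in control and 168 in diabetic cells, and stood at 0.738 and 0.982 CPM with overlapping intervals.

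Apart from Ifit2, the IFIT genes had their highest level in Squam or Conj cells, and calls came from Squam and Wing cells and from deeper labels (LSC, Basal, TAC1 and TAC2, called deep below). Ifit2 stood at 0.154 and 0.0327 CPM in Squam cells, 3.88 and 2.71 CPM in TAC2 cells and, from 10 and 13 UMIs, 4.59 and 2.82 CPM in LSC cells. Ifit1 was called lower in Squam cells, at 26.1 CPM (control) and 7.0 CPM (diabetic). It was also called lower in Wing cells (10.4 and 5.45 CPM) and Basal cells (1.65 and 0.503 CPM), while in Conj cells it stood at 12.6 and 9.77 CPM without a call. Its highest label was thus Squam in the control and Conj in the diabetic library, as for Ifit3 and Ifit3b. The TAC1, TAC2 and LSC labels had too few UMIs of Ifit1 for a call. Ifit3 stood at 89.2 and 35.7 CPM in Squam, 53.8 and 43.3 in Conj, and 12.9 and 8.02 in Wing cells. In the deeper labels Ifit3 was at 4.35 and 1.92 CPM in TAC2, 2.15 and 1.21 in Basal and 2.03 and 0.99 in TAC1 cells. LSC cells had the widest gap of Ifit3, at 17.9 CPM (control) and 2.61 CPM (diabetic). This gap rests on 39 and 12 UMIs, together just above the minimum count. Ifit3 was called lower in LSC, Basal, TAC2, Wing and Squam cells, and its Basal and TAC2 calls ended when free RNA was subtracted. Ifit3b followed it, from 59.8 and 19.0 CPM in Squam and 47.0 and 35.8 CPM in Conj cells to 1.68 and 0.799 CPM in Basal cells. Its other levels were 9.34 and 5.11 CPM in Wing, 2.87 and 1.24 in TAC2, 0.920 and 0.495 in TAC1 and 5.05 and 1.95 in LSC cells. Ifit3b was called lower in Basal, TAC2, Wing and Squam cells, with the same pair of calls ended by the subtraction.

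Ifit1bl1 was far higher in Squam and Conj cells than elsewhere: 1188 and 728 CPM in Squam and 464 and 377 CPM in Conj cells, then 33.4 and 14.7 CPM in Wing cells. Its levels were 15.1 and 3.56 CPM in TAC2, 5.05 and 2.82 in LSC, 2.97 and 0.533 in Basal and 2.57 and 0.743 in TAC1 cells. It was called lower in Squam and Wing cells and in 3 deep labels, but the deep levels were close to the shares of other Squam genes. Psca, Lce3a and Prss27, genes of the superficial layer, were used to gauge Squam RNA found in other cells. In Basal cells they stood at 0.230% to 0.304% of their Squam levels in control and 0.0951% to 0.105% in diabetic cells, and Ifit1bl1 at 0.250% and 0.0733%. In TAC1 cells the 3 genes stood at 0.183% to 0.264% and 0.104% to 0.111%, and Ifit1bl1 at 0.216% and 0.102%. Ifit1bl1 was under Psca and Prss27 in both labels and libraries, and above Lce3a in the control library. The part of free RNA in the Ifit1bl1 values of Basal and TAC1 cells was not tested, and the calls there are not read as expression. In TAC2 cells the gauge depended on the gene, at 1.27% and 0.710% for Psca, 0.969% and 0.501% for Prss27 and 0.227% and 0.0848% for Lce3a, beside 1.27% and 0.490% for Ifit1bl1. Which share applies to TAC2 cells was not tested. Isg15 in Basal cells stood at 3.04% and 2.90% of its Squam level, far above the share of any of the 3 genes there. In Wing cells Psca itself stood at 8.05% and 6.64%, Prss27 at 6.83% and 4.51%, and Lce3a at 1.87% and 0.0855%. The Lce3a share thus differed far more between the libraries than that of Psca. The part of free RNA in the Wing values was not tested.

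ISG15 is a ubiquitin-like protein that is attached to other proteins during the interferon response, and it was called lower in more labels than any other member. Over all cells it was at 93.1 and 46.4 CPM in control and diabetic cells. Its levels were 12.4 and 5.43 CPM in LSC cells, from 27 and 25 UMIs. Its levels in Basal cells were 11.1 and 5.89 CPM, with 10.7 and 4.16 in TAC1 and 11.4 and 5.65 in TAC2 cells. They were 34.0 and 16.9 CPM in Wing, 364 and 203 in Squam and 56.2 and 38.7 in Conj cells. The diabetic level was thus below the control level in all 7 labels, with ratios from 0.389 in TAC1 to 0.689 in Conj cells, and Conj was the label without a call. The partners of ISG15 differed less. Herc6, a ligase gene for its attachment in mice, was at 9.23 and 6.31 CPM, 1.46-fold lower (1.36 to 1.58), just short of the 1.5-fold limit. Trim25, a ubiquitin ligase that acts on the RNA sensor RIG-I, was at 54.9 and 44.2 CPM, 1.24-fold lower (1.21 to 1.28). Trim25 was highest in Squam cells (176 and 151 CPM), and its other levels ran from 11.1 CPM in diabetic TAC1 cells to 55.7 CPM in diabetic Conj cells. Usp18, the protease that removes ISG15 and damps the type I receptor, was at 2.52 and 2.43 CPM with overlapping intervals.

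**Figure D3:**
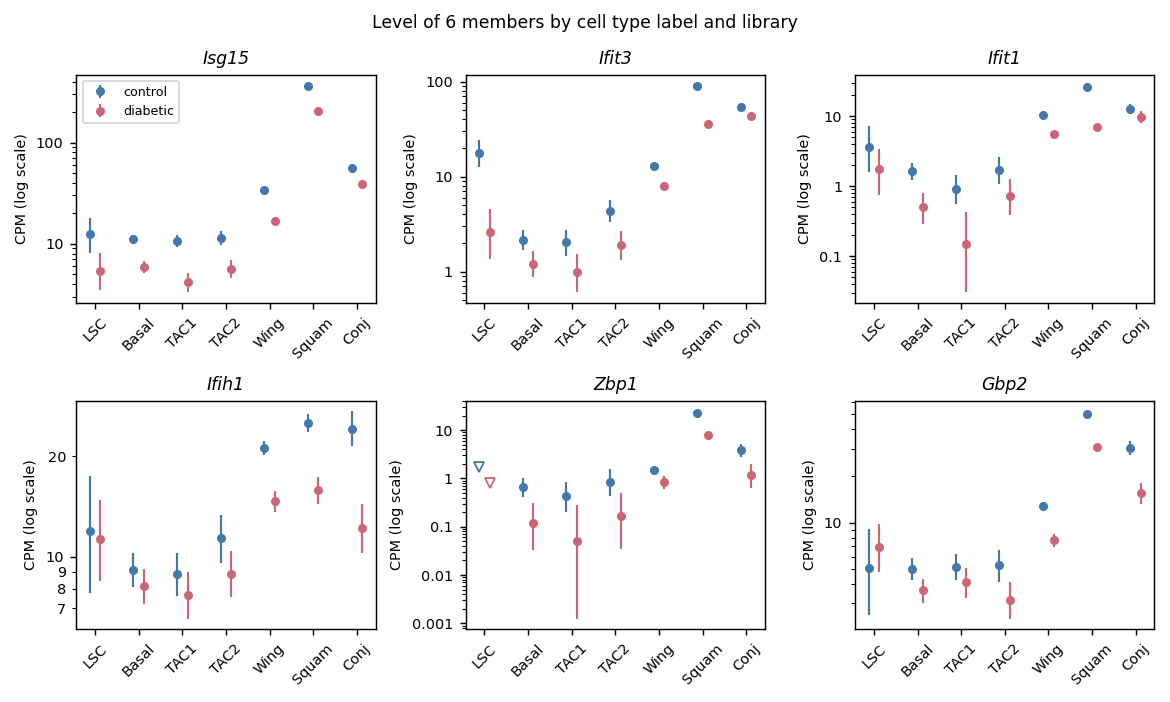
CPM on a log axis of 6 members in the 7 epithelial labels, control in blue and diabetic in red. Bars are exact 95% Poisson intervals, and open triangles mark the upper limit where no UMI was seen. Isg15, Zbp1 and Gbp2 are highest in Squam cells of both libraries, Ifit3 and Ifit1 in Squam cells of the control and Conj cells of the diabetic library, and the red points of Isg15 lie below the blue ones in each label.

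Among the sensors, the members with the largest gap were Zbp1 and Ifih1. ZBP1 senses left-handed nucleic acid and can trigger inflammatory cell death. Zbp1 was at 5.61 CPM (control) and 1.79 CPM (diabetic), 3.13-fold lower (2.75 to 3.56). Most of it was in Squam cells, at 23 and 7.88 CPM, and it was called lower there, in Conj (3.78 and 1.17 CPM) and in Wing cells (1.52 and 0.830 CPM). Deeper labels were all under 1 CPM, and LSC cells had 0 UMIs in both libraries. Ifih1, which encodes the double-stranded RNA sensor MDA5, was at 18.2 and 11.9 CPM, 1.53-fold lower (1.45 to 1.61). Unlike Zbp1 it was present in all layers, at 11.9 and 11.3 CPM in LSC, 9.11 and 8.14 in Basal, 8.86 and 7.67 in TAC1 and 11.3 and 8.88 in TAC2 cells. The Ifih1 levels were 21.2 and 14.6 CPM in Wing, 25.2 and 15.8 in Squam and 24.2 and 12.2 in Conj cells, and the last pair of labels had calls. Its gap was thus larger in the superficial and Conj cells (ratios 0.503 to 0.691) than in the deep labels (0.783 to 0.946), a comparison that has no test here.

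The RIG-I gene Ddx58 was at 24.7 and 19.9 CPM, 1.24-fold lower (1.19 to 1.30). In the labels Ddx58 ran from 8.67 and 7.97 CPM in TAC1 to 34.7 and 31.2 CPM in Wing cells, with 25.7 and 16.3 CPM in LSC and 25.2 and 21.1 CPM in Squam cells, and no label had a call. Dhx58, which encodes the RIG-I-like regulator LGP2, was at 3.28 and 2.22 CPM, with a call in Squam cells alone (5.54 and 3.60 CPM). Eif2ak2, the gene of the translation-blocking kinase PKR, was at 19.3 and 17.1 CPM and reached 20 CPM in single labels without a call in any. All 5 sensors were below 1 in ratio over all cells.

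The OAS-like genes had their calls in different labels. Oasl1, whose protein limits translation of Irf7 RNA in mice, was at 41.2 and 26.2 CPM, 1.57-fold lower (1.52 to 1.63). Its levels were 153 and 109 CPM in Squam, 21.4 and 12.4 in Wing, 30.0 and 38.5 in Conj and 2.72 and 1.92 in TAC2 cells, with a call in Wing cells. The other labels had fewer than 50 UMIs of Oasl1. Oasl2 was at 47.4 and 40.9 CPM, with 182 and 173 CPM in Squam, 55.7 and 67.9 in Conj and 16.8 and 13.6 in Wing cells. Lower calls of Oasl2 came from Basal (3.70 and 2.01 CPM) and TAC1 cells (2.71 and 1.24 CPM), while TAC2 stood at 4.97 and 4.92 and LSC at 6.89 and 9.77 CPM. The calls thus came from Wing cells for Oasl1 and from Basal and TAC1 cells for Oasl2.

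Guanylate-binding proteins are GTPases that coat intracellular pathogens, and all 3 members were called lower. Gbp2 was at 18.6 CPM (control) and 10.6 CPM (diabetic), 1.75-fold lower (1.66 to 1.86). Gbp2 calls came from Squam (50.2 and 30.7 CPM), Conj (30.5 and 15.4) and Wing cells (12.7 and 7.68). In Basal, TAC1 and TAC2 cells Gbp2 stood at 5.03 and 3.64, 5.18 and 4.11, and 5.28 and 3.17 CPM, and in LSC cells at 5.05 and 6.95 CPM from fewer than 50 UMIs. Gbp7 was at 7.82 and 4.53 CPM, 1.73-fold lower (1.58 to 1.89), with the diabetic level the lower in each label. It was called in Basal (4.40 and 2.66 CPM), TAC1 (4.31 and 2.53), Wing (6.58 and 3.81) and Squam cells (17.1 and 11.1), and stood at 2.87 and 2.09 in TAC2, 6.66 and 4.21 in Conj and 4.13 and 1.74 in LSC cells. Gbp3 was rare, at 1.32 and 0.497 CPM (259 and 85 UMIs), 2.65-fold lower (2.07 to 3.43), with most of it in Squam cells at 5.05 and 1.96 CPM. These genes have close paralogs in mice, so their values also depend on how shared reads were assigned.

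The transcription factors that carry or amplify the response had 0 calls over all cells. Irf7, the amplifier of type I interferon, was at 44.8 and 34.5 CPM, 1.30-fold lower (1.26 to 1.35). It was called lower in TAC1 (4.50 and 2.38 CPM) and TAC2 cells (7.45 and 4.18), stood at 157 and 135 CPM in Squam, 24.5 and 19.1 in Wing, 5.19 and 4.41 in Basal and 6.89 and 4.78 in LSC cells, and at 32.1 and 41.2 CPM in Conj cells. Irf1, a factor induced mainly by interferon gamma, was at 110 and 107 CPM over all cells, 1.03-fold lower (1.01 to 1.05). Irf1 stood at 419 and 458 CPM in Squam, 76.1 and 76.0 in Conj, 38.4 and 35.3 in Wing, 23.1 and 20.4 in TAC2, 21.9 and 20.9 in Basal, 20.8 and 18.0 in TAC1 and 16.5 and 22.8 in LSC cells. Irf9 was at 12.0 and 10.6 CPM and Stat2 at 6.51 and 5.54 CPM, and the proteins of both act at the ISRE. Neither Irf9 nor Stat2 was called in any label.

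PARP9, DTX3L and PARP14 add ADP-ribose or ubiquitin to proteins during the response, and no gene of the 3 was called. Parp9 was at 26.1 and 21.3 CPM, Dtx3l at 37.1 and 34.4 CPM and Parp14 at 17.8 and 15.6 CPM. Their Squam levels were 69.1 and 60.0 CPM for Parp9, 118 and 120 CPM for Dtx3l and 48.4 and 42.7 CPM for Parp14. In the other labels Parp9 ran from 8.08 CPM in diabetic Basal to 29.0 CPM in diabetic Conj cells, and Dtx3l from 7.92 CPM in diabetic TAC1 to 39.8 CPM in diabetic Conj cells.

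Of the 6 other antiviral effectors, Rsad2 and Cmpk2 were called lower, and both calls rest on few cells. RSAD2, or viperin, makes a chain-terminating nucleotide from the product of its neighbour CMPK2. Rsad2 had 169 UMIs in control and 0 in diabetic cells, at least 49.1-fold lower when the diabetic library is set to a floor of 3 UMIs. The 169 UMIs came from 9 cells, 128 of them from 1 cell and 164 from the 4 highest. Cmpk2 had 44 UMIs in 12 control cells, 23 of them in 1 cell, and 7 UMIs in 7 diabetic cells. With the 1% of cells highest in the summed members left out of each label, the log2 ratio of Cmpk2 was 0.42. Samd9l, an inhibitor of translation, was at 83.3 and 67.5 CPM, 1.23-fold lower. Samd9l was spread over the labels, at 59.2 and 73.6 CPM in LSC, 30.8 and 26.8 in Basal, 28.7 and 24.5 in TAC1, 35.2 and 26.8 in TAC2, 95.7 and 83.6 in Wing, 129 and 102 in Squam and 147 and 160 in Conj cells. Xaf1, a promoter of apoptosis, was at 13.3 and 9.12 CPM with calls in Basal (10.6 and 6.51 CPM) and TAC1 cells (9.59 and 4.31 CPM). Rtp4 was at 7.14 and 5.27 CPM, with calls in the same labels, at 1.74 and 0.651 CPM in Basal and 2.03 and 0.396 CPM in TAC1 cells. Bst2, or tetherin, which holds budding virus at the membrane, was at 6.93 and 6.22 CPM, with a call in Squam cells (5.51 and 2.29 CPM).

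Among the small induced proteins, Ifi27 and Ifi35 were spread over all layers. Ifi27 was at 148 and 112 CPM, 1.33-fold lower (1.30 to 1.35). It stood at 160 and 98.2 CPM in LSC, where it was called, 150 and 119 in Basal, 137 and 96.5 in TAC1, 126 and 91.3 in TAC2, 162 and 131 in Wing, 127 and 88.2 in Squam and 167 and 127 in Conj cells. Ifi27 was thus lower in all 7 labels by similar ratios, from 0.615 to 0.812. Ifi35 was at 76.1 and 62.9 CPM, lower in all 7 labels without a call, from 46.5 and 40.1 CPM in TAC1 and 53.7 and 37.4 in LSC to 107 and 93.9 CPM in Squam cells. Ifi44 was at 1.04 and 0.631 CPM (204 and 108 UMIs), 1.65-fold lower (1.30 to 2.10), with 165 and 85 of its UMIs in Squam cells at 4.23 and 2.78 CPM. Ifi27l2a had the reverse profile, highest in LSC cells (53.2 and 58.6 CPM) and in Basal cells (36.5 and 26.1 CPM), and lowest in Squam cells (2.00 and 0.490 CPM). Ifi27l2a was called lower in Squam and TAC1 cells (9.06 and 5.25 CPM), and stood at 21.1 and 23.5 CPM in TAC2, 4.88 and 7.11 in Wing and 2.88 and 3.67 in Conj cells. Lgals3bp was at 1.30 and 1.15 CPM, with a call in Wing cells (1.17 and 0.623 CPM).

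In both libraries Squam cells held most of these transcripts. Squam cells contributed 57.4% of the members' UMIs in control and 52.7% in diabetic cells. Of the UMIs of all genes, they held 39010792 of 196359192 in control and 30583406 of 171030636 in diabetic cells. Among the members, 21 had their highest level in Squam cells of both libraries. The share of all genes that are highest there was not computed. The summed level was 3716 and 2726 CPM in Squam cells, a ratio of 0.733 (0.727 to 0.740), and 1525 and 1346 CPM in Conj cells, a ratio of 0.883 (0.863 to 0.902). Wing cells had 766 and 608 CPM, LSC 584 and 489, Basal 472 and 382, TAC2 451 and 355 and TAC1 399 and 308 CPM. The diabetic sum was the lower in each of these 7 labels.

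Cell by cell, the gap in the summed level of Squam cells was seen at the 10th percentile, the median and the 90th percentile. Abundant members weigh most in this sum. Without Ifit1bl1, the ratio of summed CPM in Squam cells was 0.790, beside 0.733 with it. Not all members went the same way, as Irf1 stood at 419 and 458 CPM in these cells. The median Squam cell carried 3475 CPM (control) and 2477 CPM (diabetic) of the members. The 10th percentiles were 1569 and 1217 CPM and the 90th percentiles 6447 and 4628 CPM. After random thinning of each cell to 5000 UMIs, which left out 46 control and 39 diabetic Squam cells as too shallow, the medians were 17 and 12 UMIs of the members. In Conj cells the thinned medians were 4 and 4 UMIs, and the unthinned medians 839 and 795 CPM. At the upper end, 26 control Squam cells lay above the highest diabetic Squam cell (10012 CPM), with sums from 10131 to 29413 CPM. Cells of 1 pool are not replicates, so these values describe the 2 libraries.

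**Figure D4:**
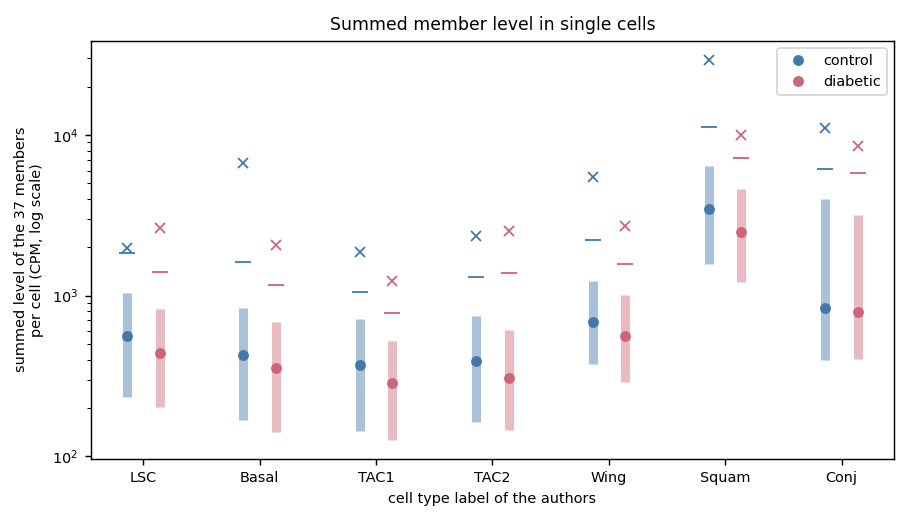
Summed level of the 37 genes per cell, in CPM on a log axis, by label and library (control blue, diabetic red). Dots are medians, thick bars run from the 10th to the 90th percentile, dashes are the 99th percentile and crosses the highest cell. The control bar of Squam cells lies above the diabetic one at the 10th percentile (1569 and 1217 CPM), the median and the 90th percentile, and the Conj medians lie close together.

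Alternatives for free RNA and for label proportions changed part of the calls, and the part of free RNA itself was not tested. When the Psca share of each gene's Squam level was subtracted in LSC, Basal, TAC1 and TAC2 cells, an alternative chosen after the data were seen, 14 of the 25 calls in these labels were kept. The subtraction rests on Psca alone, and the share by Lce3a or Prss27 differs in LSC and TAC2 cells. Basal and TAC1 cells then had 6 calls each, LSC cells 2 and TAC2 cells 0. Isg15 kept its call in Basal (10.1 and 5.70 CPM after subtraction) and TAC1 cells (9.79 and 3.95 CPM), and lost it in LSC (10.5 and 5.03 CPM) and TAC2 cells (6.79 and 4.21 CPM). Ifit3 kept its call in LSC cells, and Ifit1 in Basal cells. Beside Isg15, the calls lost were Ifit3, Ifit3b and Ifit1bl1 in Basal cells, Ifit1bl1 and Oasl2 in TAC1 cells, and Irf7, Ifit3, Ifit3b and Ifit1bl1 in TAC2 cells. The subtraction also lowers the counts behind each interval, which widens the intervals. Apart from Ifit1bl1, the lost calls kept ratios from 0.468 (Oasl2 in TAC1 cells) to 0.620 (Isg15 in TAC2 cells), still beyond the 1.5-fold limit. With each label given the same weight in both libraries, 11 of the 14 calls over all cells were kept, and the level of all 14 was still the lower in the diabetic library. The calls lost were Ifih1 (log2 ratio -0.53), Oasl1 (-0.49) and Ifi44 (-0.58), which also lost theirs with equal weight for every cell. With Immune cells left out, all of the 14 calls were kept.

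The other genes of the interferon pathway are given by role. Over all measured genes, 2.8% were called lower, 5.98% were called higher and 38.6% had a ratio below 1. The interferon genes themselves (Ifnb1, Ifna1, Ifna2, Ifna4, Ifna5, Ifne, Ifnk, Ifng, Ifnl2 and Ifnl3) were not analysed here. Of 6 receptor chains, 0 were called in either direction. Ifnar1 and Ifnar2, the type I receptor, were at 8.08 and 9.59 CPM and at 15.8 and 17.7 CPM. Ifngr1 and Ifngr2, the interferon gamma receptor, were at 44.4 and 38.8 CPM and at 52.6 and 46.9 CPM. Ifnlr1 and Il10rb, the interferon lambda receptor, were at 5.34 and 5.25 CPM and at 18.9 and 17.6 CPM. All 6 chains were within 1.19-fold between the libraries.

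Of 10 signal carriers, 1 was called lower and 0 higher. The receptor kinases were near equal, Jak1 at 118 and 108 CPM, Jak2 at 20.7 and 19.4 CPM and Tyk2 at 8.31 and 9.60 CPM. Stat3 was at 55.3 and 56.3 CPM. Irf5 was the called carrier, at 5.59 and 3.65 CPM. Of 5 inhibitors, Socs3, which blocks cytokine receptor kinases, was called higher, at 0.413 and 2.58 CPM (81 and 441 UMIs), 6.25-fold (4.92 to 8.02). Socs3 was called higher in Basal, TAC1 and TAC2 cells. Socs3 is induced by many cytokines and is not specific to interferon. Of 9 measured sensors and adaptors, 0 were called.

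Downstream, 35 further genes induced by type I interferon had 11 lower calls and 1 higher call, with a median log2 ratio of -0.35 and 27 ratios below 1. The pathway lists were chosen with earlier results of these data known, so they give no independent support for the members. The lower calls were Ifitm1, Oas1a, Oas1g, Oas2, Epsti1, Sp100, Sp110, Slfn2, Ifi203, Mndal and Apol9a. Sp100, a nuclear body protein gene, was at 5.81 and 1.85 CPM, 3.13-fold lower (2.76 to 3.56), with calls in 5 labels. Slfn2 was at 17.3 and 8.68 CPM, 1.99-fold lower (1.87 to 2.12), with calls in 4 labels. Epsti1 was at 2.52 and 0.936 CPM and Apol9a at 14.1 and 8.65 CPM, with calls in 3 labels each. Ifitm3 was the higher call. The 9 measured genes linked mainly to interferon gamma had a median of -0.79, with 5 lower calls (Gbp4, Gbp8, Ifi47, Ccl5 and Cd274) and 0 higher. Cd274, which encodes the T cell inhibitor PD-L1, was at 34.0 and 22.0 CPM, and Ifi47 at 13.9 and 7.07 CPM. Ccl5 had 80 control UMIs, 61 of them in Immune cells, and 0 diabetic UMIs. Of 11 measured genes of antigen presentation on MHC class I, all 11 ratios were below 1 with a median of -0.18, and Psmb9, an immunoproteasome subunit, was called lower, at 58.8 and 34.6 CPM, with calls in 6 labels.

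**Figure D5:**
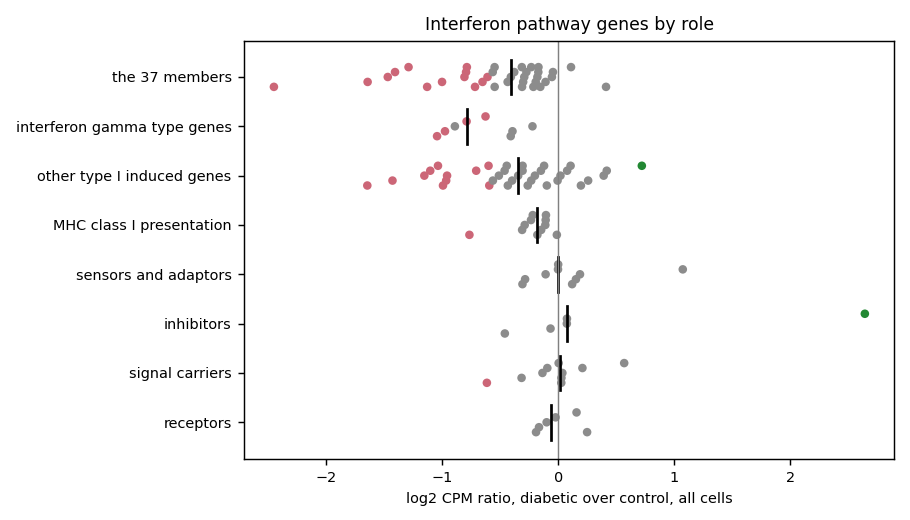
log2 CPM ratio of diabetic over control over all cells for the interferon pathway genes by role and for the 37 members. Each point is a gene with 50 or more UMIs over both libraries and at least 1 in each, red marks genes called lower, green genes called higher and black bars the medians. The medians of receptors and signal carriers lie near 0, and those of the induced groups left of it.

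In the RefSeq promoter windows, the ISRE letters were in 10 of the 13 called members with a window and in 4 of the 16 others. The share over all genes with a window was 3.99%. The 10 include the related genes Ifit1, Ifit3, Ifit3b and Ifit1bl1, and Gbp2, Gbp3 and Gbp7, so they are not independent. A link between a match and a call was not tested. The GAS letters were in 1 of the 13 called members and 5 of the 16 others, against 9.55% of all genes. Which members carry a match was not used to choose or call them, and a missing match says only that these letters are not in this window.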

How the data were processed

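The authors deposited a matrix of raw UMI counts (whole numbers) by gene and cell, and a cell table with group and cell type labels. Libraries were made with a 10x Genomics 3′ kit, per the labels' protocols. Cell Ranger 5.0.0, Seurat 4 and mm10 are named, without roles, in the submitters' processing notes. How cells were filtered is not given in the sources used here.

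The deposited counts of each library were added up over all cells and within each label, then scaled to CPM. Each CPM has an exact 95% Poisson interval, and each ratio an exact conditional binomial one. A call needed 50 summed counts, a 1.5-fold difference and intervals apart, judged for all genes in the table. With 1 pooled library per group no p-value was computed. The median over members has a binomial order-statistic interval. The rule for named genes gave values by label to members at 20 CPM or more in a library or called over all cells, values to receptor chains, kinases and STAT genes (1 of them is not reported here), and a name to other pathway genes called over all cells or in 3 labels or more. The members and lists were chosen with earlier results of these data known. Code was tested on simulated data. Alternatives were minimums of 200 and 10 counts, a lower fold limit and one of 2, median-of-ratios scaling, removal of the 8% of cells with the highest doublet scores (791 control and 683 diabetic cells) or over 10% mitochondrial counts, equal cell weights, thinning to 5000 UMIs, equal label weights and removal of labels. Removal of the top 1% of cells and subtraction of free RNA were chosen after seeing the data. Python 3.11.15 was used with matplotlib 3.10.9, scanpy 1.11.5, pandas 2.3.3, scipy 1.17.1 and numpy 2.4.6. Promoter windows came from RefSeq.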

Additional observations from a re-analysis of the deposited data

Results flagged for a closer look

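For 5 members the ratio of diabetic over control CPM went in opposite directions in different labels, by 1.2-fold or more each way and with counting intervals that exclude 1. The difference between labels was not tested, since each group is 1 library. Irf7 had ratios of 0.528 in TAC1, 0.561 in TAC2 and 0.778 in Wing cells, and 1.28 in Conj cells. Oasl1 had ratios of 0.579 in Wing and 0.711 in Squam cells, and 1.29 in Conj cells. Oasl2 had ratios of 0.544 in Basal, 0.456 in TAC1 and 0.810 in Wing cells, and 1.22 in Conj cells. Samd9l had ratios of 0.761 in TAC2 and 0.791 in Squam cells, and 1.24 in LSC cells. Ifi27l2a had ratios of 0.714 in Basal, 0.579 in TAC1 and 0.245 in Squam cells, and 1.46 in Wing cells. None of the ratios above 1 reached the 1.5-fold limit of a call.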

How the results depend on the processing

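The 14 members called lower over all cells stayed below 1 in each alternative that was run, except Cmpk2 without the top 1% of cells, where its log2 ratio was 0.42. Minimum counts and fold limits cannot change a ratio, so those alternatives could not move it. Of the 53 calls in labels, all stayed below 1 wherever a value was had, except 2 of the 25 in deep labels after subtraction of free RNA, Ifit1bl1 in Basal and TAC1 cells, where nothing was left in either library. The counts of calls moved by more than 1.5 times as follows. A fold of 2 left 8 calls over all cells, 4 in Basal, 5 in TAC1, 2 in Wing, 8 in Squam and 1 in Conj cells, and the lower fold limit that was tried gave 6 in Conj cells. A minimum of 200 counts left 1 call in LSC, 3 in Basal, 3 in TAC1 and 2 in TAC2 cells. Thinning to 5000 UMIs, which lowers the counts themselves, left 9 calls over all cells, 1 in LSC, 2 in Basal, 2 in TAC1, 0 in TAC2 and 9 in Squam cells, with medians of -0.19 in TAC1 and -0.065 in TAC2 cells. Without likely doublets, 1 call was left in LSC and 3 in TAC2 cells. TAC2 cells had 3 calls with equal cell weights, 3 without the top 1% of cells and 0 after subtraction of free RNA. The median TAC2 cell had 16629 UMIs in control and 24500 in diabetic cells, and the median LSC cell 9259.5 and 12284. Apart from the lower counts, the cause of these moves was not tested. The LSC median of -0.08 was 0.11 without likely doublets and 0.02 with equal cell weights. Median-of-ratios scaling moved the median of all genes from 0.07 to -0.01, kept all 14 calls over all cells and added 3. Of the values of single members over all cells, 319 moved by less than their counting interval, 76 by more, and of the called ones Cmpk2 changed sign. No paired analysis was possible because each group is 1 library.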

Other observations

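The antiviral membrane proteins of the Ifitm family, which are not among the 37 genes, did not share one direction. Ifitm1 was more abundant than any member, at 2034 CPM (control) and 1340 CPM (diabetic), and its level in Squam cells was 5999 and 3553 CPM, a ratio of 0.592 (0.588 to 0.596). In TAC1 cells Ifitm1 was called higher, at 28.8 and 44.1 CPM, a ratio of 1.53 (1.38 to 1.70). Psca in TAC1 cells stood at 0.250% and 0.104% of its Squam level, and the part that free RNA has in the Ifitm1 level there was not tested. Ifitm3 was called lower in Squam cells, at 14.9 and 6.31 CPM, and higher in TAC2 cells, at 58.1 and 102 CPM. In LSC cells, where Ifitm3 was highest, it stood at 651 and 707 CPM without a call.

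Irf8, a factor of interferon signalling best known from immune cells, was called higher in Squam cells of the diabetic library, at 2.20 and 4.74 CPM (86 and 145 UMIs), 2.15-fold (1.64 to 2.84). The 5 leukocyte markers summed to 0.666 and 0.785 CPM in the same cells.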
